A study of Mus musculus with 3 samples.

Results

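The loci of 5 genes known as direct responders to Notch signalling, Hey1, Hey2, Heyl, Hes5 and Nrarp, were examined for occupancy by the receptor Notch2 in mouse embryonic kidney. Members were all Notch2 peaks with any base within 100 kb of the mm9 position of a gene, and they numbered 33 of the 28651 peaks of replicate 1 and 6 of the 12585 peaks of replicate 2. The positions were 8.665 Mb on chromosome 3 for Hey1, 30.56 Mb on chromosome 10 for Hey2, 122.91 Mb on chromosome 4 for Heyl, 154.335 Mb on chromosome 4 for Hes5 and 25.04 Mb on chromosome 2 for Nrarp. Those of Hey2, Heyl and Nrarp are given to the nearest 10 kb and those of Hey1 and Hes5 to the nearest 1 kb. A distance from Hey2, Heyl or Nrarp is therefore uncertain by up to 5 kb, and no peak is called a promoter peak here.

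Chromatin immunoprecipitation with an anti-Notch2 antibody (Cell Signaling Technology) and sequencing (ChIP-seq) was performed on whole kidneys of stage E16.5, and 2 immunoprecipitated samples and 1 input sample were labelled. No strain, genotype or treatment is stated for any sample. A peak is a region listed by the authors as holding an excess of fragments, and each list gives only the chromosome, start and end of its peaks. The lists do not show the read depth, and no list of the input was used here. Separate litters are not stated for the replicates, so differences between them may be technical. Whole kidney mixes many cell types, and a site occupied in few cells cannot be told apart from a site occupied weakly in many.

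Notch receptors are cleaved when a ligand on a neighbouring cell binds them, and the released intracellular part enters the nucleus and joins the DNA-binding protein RBPJ and a Mastermind coactivator. RBPJ binds DNA whose core is TGGGAA, and the longer form GTGGGAA is common among its sites. Hey1, Hey2 and Heyl encode basic helix-loop-helix repressors of the Hairy and Enhancer-of-split related family, and Hes5 encodes a repressor of the related Hes family. Nrarp encodes a small ankyrin-repeat protein that binds the Notch intracellular part with RBPJ and dampens the signal. In the forming nephron Notch2 is known for its part in specifying proximal segments.

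The letters of the RBPJ core are shown first in the promoters, as background on the sequence at these genes. RefSeq promoters of the GRCm38.p6 build were matched for 3 of the 5 genes, Hes5, Hey2 and Nrarp. The 250 bases before the annotated start are printed 5′ to 3′ on the gene's strand, with matches to GTGGGAA or its reverse complement in capitals. The intervals are chr4:154960673-154960922 on the plus strand for Hes5, chr10:30842784-30843033 on the minus strand for Hey2 and chr2:25180508-25180757 on the plus strand for Nrarp. These GRCm38.p6 positions differ from those of mm9 and were not joined to the peaks.
Hes5: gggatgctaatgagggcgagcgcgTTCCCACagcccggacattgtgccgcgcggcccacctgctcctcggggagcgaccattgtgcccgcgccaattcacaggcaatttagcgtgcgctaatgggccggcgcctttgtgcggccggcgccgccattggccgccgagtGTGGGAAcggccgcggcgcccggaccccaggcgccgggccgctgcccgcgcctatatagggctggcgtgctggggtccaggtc
Hey2: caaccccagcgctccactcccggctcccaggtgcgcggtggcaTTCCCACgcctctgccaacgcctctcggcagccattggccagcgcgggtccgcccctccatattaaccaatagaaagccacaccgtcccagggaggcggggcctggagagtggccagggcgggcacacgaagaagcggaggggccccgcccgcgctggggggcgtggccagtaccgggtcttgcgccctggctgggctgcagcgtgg
Nrarp: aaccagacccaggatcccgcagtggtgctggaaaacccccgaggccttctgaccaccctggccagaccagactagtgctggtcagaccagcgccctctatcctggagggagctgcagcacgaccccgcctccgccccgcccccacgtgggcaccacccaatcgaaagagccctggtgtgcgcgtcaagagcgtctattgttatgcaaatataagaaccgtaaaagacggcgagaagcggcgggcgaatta

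The Hes5 promoter held 2 matches in opposite orientation, at bases 226 to 220 before the start on the minus strand and at bases 83 to 77 on the plus strand. The Hey2 promoter held 1 match, on the minus strand at bases 207 to 201 before the start. The Nrarp promoter held 0 matches to GTGGGAA and 0 to the shorter TGGGAA in this window. Every match to TGGGAA in the Hes5 and Hey2 windows lay inside a match to GTGGGAA. Of 32851 promoters of this length, 5.42% held GTGGGAA on either strand and 0.161% held it at least 2 times, and 21.6% held TGGGAA. A match is a run of letters and not a measured site, and the absence of a match concerns these 250 bases only.

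Notch2 peaks were listed near all 5 genes in replicate 1 and near 4 of them in replicate 2, and the loci differed widely. Replicate 1 had 12 peaks within 100 kb of Nrarp, 9 at Hey1, 7 at Heyl, 4 at Hey2 and 1 at Hes5. Replicate 2 had 2 peaks at Nrarp, 2 at Heyl, 1 at Hey1, 1 at Hey2 and 0 at Hes5. Nrarp thus had the most replicate 1 peaks and Hes5 the fewest, and Hes5 was the locus with no replicate 2 peak. None of these peaks was a repeated row of its file.

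The counts were read against every 200 kb window of a grid laid end to end over the genome, 12774 windows between the outermost peaks of each chromosome, with a mean of 2.24 replicate 1 peaks and 0.987 replicate 2 peaks. At least 12 replicate 1 peaks, as at Nrarp, were found in 1.07% of windows, and in 1.68% of those on chromosome 2. The 9 peaks of Hey1 were reached in 3.56% of windows, the 7 of Heyl in 7.57% and the 4 of Hey2 in 24.0%. For Hes5 the order was turned, since 67.2% of windows had at least 1 peak and 52.2% had at most 1. In replicate 2 no locus stood far from the grid, with 2 or more peaks (Heyl, Nrarp) in 23.4% of windows, 1 or more (Hey1, Hey2) in 44.0% and 0 (Hes5) in 56.0%. The windows of the grid are not centred on genes, so these shares describe the loci and are no test of them.

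**Figure D1:**
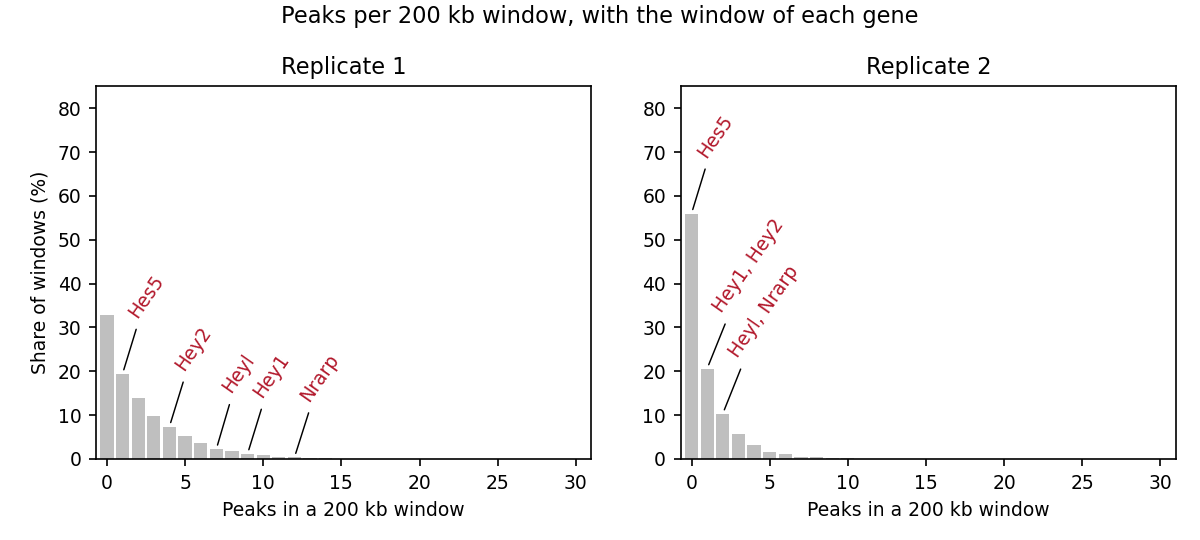
Share of 200 kb windows (y axis, percent of 12774 windows) by the number of Notch2 peaks they hold (x axis), for replicate 1 (left) and replicate 2 (right), with the window of each gene marked at its own count. In replicate 1 Nrarp, Hey1 and Heyl lie in the right tail at 12, 9 and 7 peaks and Hes5 at 1, whereas in replicate 2 all 5 genes lie at 0 to 2 peaks.

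The replicates were unequal at these genes. The 33 and 6 peaks stand in a ratio of 5.50 (95% exact binomial interval 2.28 to 16.1), against 2.28 for the whole lists, so the interval reaches down to the overall ratio. It covers counting error only and treats clustered peaks as independent. Without Nrarp the ratio was 5.25, with 21 and 4 peaks. Among the 49 windows of the grid with exactly 12 replicate 1 peaks, the median was 5 replicate 2 peaks, and 18.4% had at most the 2 found at Nrarp. For the 154 windows with 9 replicate 1 peaks the median was 4, and 25.3% had at most the 1 found at Hey1. Windows with 7 had a median of 3, and 48.3% of them had at most the 2 of Heyl. At Hey2 and Hes5 the replicate 2 counts of 1 and 0 equalled the medians of windows with 4 and with 1 replicate 1 peaks, and 53.2% and 61.8% of those windows had at most as many. Nrarp and Hey1 thus had fewer replicate 2 peaks than the median window of like replicate 1 count. Counts that low still occurred in 18.4% and 25.3% of such windows. Heyl was also below its median, but its 48.3% was close to the 53.2% of Hey2, and Hes5 was at its median.

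All 6 replicate 2 peaks had a counterpart in replicate 1 (overlap of 1 bp or more), that is, 100% (95% Wilson interval 61.0 to 100%), where 75.5% of all replicate 2 peaks did. Of the 33 replicate 1 peaks 6 were shared, or 18.2% (95% Wilson interval 8.61 to 34.4%), where 33.0% of all replicate 1 peaks were. Both intervals are wide, treat clustered peaks as independent, and include the share of the whole list. With only 6 replicate 2 peaks at these loci, each paired with 1 replicate 1 peak, hardly more replicate 1 peaks could be shared. The 18.2% therefore largely restates the ratio of the counts and is no separate result on sharing. Shared peaks numbered 2 at Heyl, 2 at Nrarp, 1 at Hey1, 1 at Hey2 and 0 at Hes5. At least 2 shared peaks were found in 17.6% of windows, at least 1 in 37.6% and 0 in 62.4%. The number of shared peaks fell from 6 to 3 when 50% of both peaks had to overlap, and to 2 when centres had to lie within 100 bp.

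**Figure D2:**
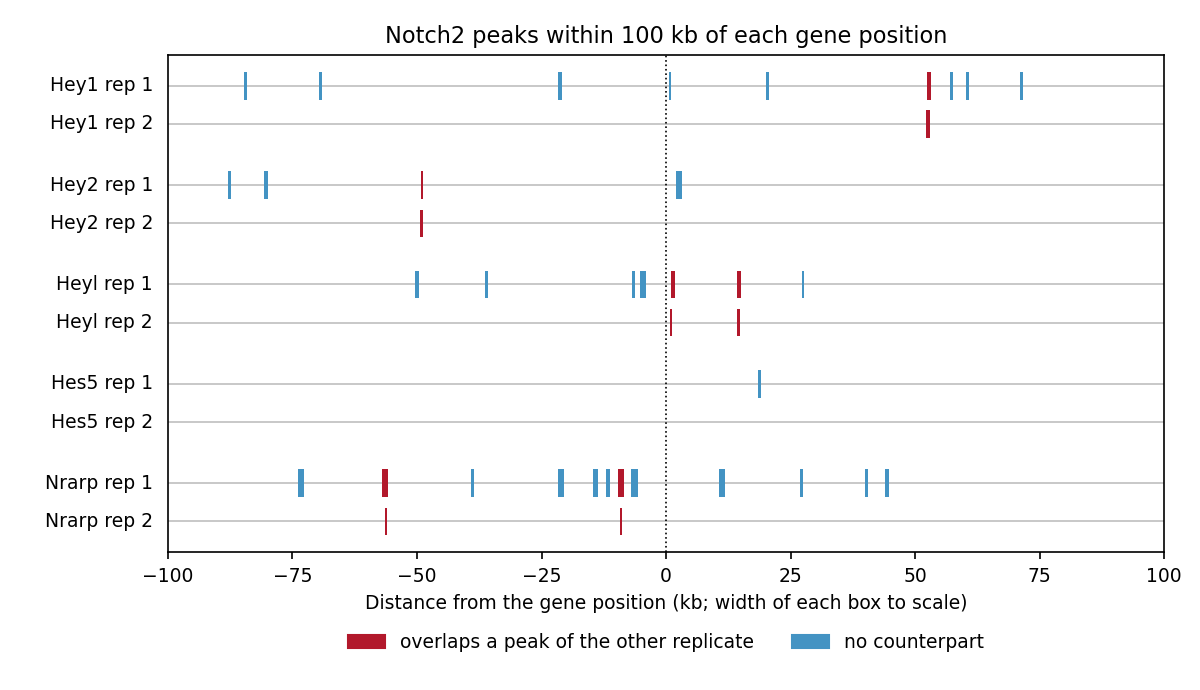
Notch2 peaks within 100 kb of each gene position (x axis, distance in kb along the mm9 chromosome), with 1 line per gene and replicate, boxes drawn to the width of each peak, red for peaks that overlap a peak of the other replicate and blue for the rest. The 6 shared sites lie near 53 kb at Hey1, -49 kb at Hey2, 1 and 15 kb at Heyl, and -56 and -9 kb at Nrarp, and the Hes5 line of replicate 2 is empty.

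Hey1, a repressor best known from the developing vessels and heart, had its leading peak far from the gene. In replicate 1 the peak at chr3:8717371-8718147 lay 52.8 kb on the higher-coordinate side of the gene position, measured 777 bp and stood at place 101 of 28651 in the file, within the first 0.353%. The order of the files is not described in the sources used here, but all of the first 101 peaks of replicate 1 were shared and 6.01% of those from place 27139 on. Replicate 2 listed the site at chr3:8717167-8718042, with 876 bp, at place 836 of 12585, within the first 6.64%. The overlap of both peaks was 672 bp and their centres lay 154.5 bp apart. This was the earliest of the 33 member peaks in replicate 1 and the second earliest of the 6 in replicate 2.

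Near the Hey1 gene position itself, replicate 1 had a peak of 500 bp, the narrowest width in the lists, at chr3:8665572-8666071 and place 27139, in the last part of the file. Its nearest replicate 2 peak was the distal one, 51.1 kb away. A further replicate 1 peak at chr3:8685048-8685678, 20.4 kb from the position, stood at place 5110 without a counterpart, whereas 76.2% of the peaks up to that place had one. The distal shared peak was followed by 3 unshared replicate 1 peaks, of which 2 lay close enough to form a group of 3 within 8.52 kb. The remaining 3 peaks lay on the lower-coordinate side, 21.3 to 84.4 kb from the position, and measured 625 to 656 bp. Hey1 had no replicate 2 peak within 50 kb of its position.

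Hey2, the repressor known for its part in the heart ventricle and arteries, likewise had a distal shared site and an unshared replicate 1 peak near the gene, but here the peak near the gene was the earlier of the pair in the file. The replicate 1 peak at chr10:30561978-30563157 lay 2.57 kb from the gene position, measured 1180 bp and stood at place 1601, within the first 5.59%. It had no counterpart, and the nearest replicate 2 peak was 50.7 kb away. Of the 1601 replicate 1 peaks up to that place 1448 (90.4%) were shared, and of the 2731 peaks at least as wide 58.0% were. The Hey2 peak thus belonged to the minority of early replicate 1 peaks that were missing from replicate 2.

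The shared Hey2 site lay 49.0 kb on the lower-coordinate side, at chr10:30510800-30511299 in replicate 1 and chr10:30510552-30511247 in replicate 2. It was narrow and late in both lists, with 500 bp at place 22251 (77.7% of the list) and 696 bp at place 10159 (80.7%). From place 22251 on, 9.50% of replicate 1 peaks were shared, and from place 10159 on, 53.5% of replicate 2 peaks were. The other 2 replicate 1 peaks of Hey2 measured 500 and 791 bp and lay 87.6 and 80.4 kb from the position.

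Heyl, the family member known from vascular smooth muscle and somites, was the gene with a shared peak nearest the position given for it. With both positions uncertain by up to 5 kb, its order against Nrarp, with a shared peak at 9.04 kb, is not settled. Replicate 1 listed this Heyl peak at chr4:122910988-122911741, 1.36 kb from the position, with 754 bp at place 3812 (13.3%). Replicate 2 listed it at chr4:122910801-122911300, 1.05 kb from the position, with 500 bp at place 759 (6.03%). The replicate 2 peak was early despite its width, since 6 of the 6028 replicate 2 peaks of 500 bp stood at or before that place. The peaks overlapped by 313 bp with centres 314 bp apart, the largest distance of the 6 sites, and 8.56% of all shared replicate 1 peaks lay at least as far from their counterpart.

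The other shared Heyl site was 14.7 kb from the position, at chr4:122924204-122925125 in replicate 1 and chr4:122924356-122924855 in replicate 2. It measured 922 bp at place 3959 of 28651 (13.8%) in replicate 1 and 500 bp at place 11947 of 12585 (94.9%) in replicate 2. Places in lists of such different length are no measure of a change in occupancy between the replicates. On the lower-coordinate side replicate 1 had an unshared peak of 1224 bp at chr4:122904830-122906053 and place 6730, 4.56 kb from the position, and another of 626 bp beside it. Together with the shared peak near the gene these formed a group of 3 within 8.50 kb. Another peak of 500 bp lay at 27.5 kb, and the 2 remaining peaks of 627 and 907 bp lay 36.0 and 50.04 kb away.

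Hes5, a repressor through which Notch signalling acts in several stem and progenitor cells, had the fewest peaks of the 5 within 100 kb. The window held 1 peak in replicate 1, at chr4:154353536-154354035, of 500 bp and at place 25562 (89.2%), 18.8 kb from the gene position. Replicate 2 had no peak in the window, and its nearest peak lay 175 kb from the position. The promoter printed above for Hes5 held 2 matches to GTGGGAA, but no peak of either list lay within 10 kb of the gene position. The lists do not tell a site below the caller's threshold from an empty one, and the absence of a peak sets no upper limit on occupancy without the read depth.

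The locus of Nrarp, the feedback inhibitor, had the densest group and the widest peaks. By GRCm38.p6 RefSeq annotation it holds 16 other protein-coding genes within 100 kb of Nrarp, and peaks were not assigned to genes here. The 12 replicate 1 peaks at this locus had a median width of 1057 bp and a range of 631 to 1577 bp, against a median of 637 bp in the whole list. Of the 9 member peaks wider than 1000 bp, 7 were at Nrarp, and 15.6% of all replicate 1 peaks were that wide. The peaks spread over both sides of the gene position, with 8 on the lower-coordinate and 4 on the higher-coordinate side. Places ran from 4541 to 21849 with a median at 30.6% of the list, and the earliest of these peaks stood at 15.8%.

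The widest Nrarp peak, at chr2:25032881-25034457 with 1577 bp and place 4541 (15.8%), was the one nearest the gene position, 6.33 kb on the lower-coordinate side. It had no counterpart, although a replicate 2 peak ended 1.64 kb away, and 62.4% of the replicate 1 peaks at least as wide were shared. With edges within 10 kb joined, it closed a cluster of 5 peaks from 25018278 to 25034457 on chromosome 2, a stretch of 16.2 kb with gaps of 1.40 to 5.77 kb, of which 35.7% lay inside peaks. Clusters of 5 or more held 4.99% of all replicate 1 peaks, and 4 of the 5 stayed together when only edges within 5 kb were joined. The shared member of this cluster was chr2:25030433-25031479, with 1047 bp at place 11001 (38.4%). Its replicate 2 peak, chr2:25030737-25031236, measured 500 bp at place 5521 (43.9%) and lay wholly inside it, with centres 30.5 bp apart, the smallest distance of the 6 sites.

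The other shared Nrarp site lay 56.5 kb from the position, at chr2:24982935-24984078 with 1144 bp and place 7182 (25.1%) in replicate 1. In replicate 2 it was listed at chr2:24983498-24983997, with 500 bp and place 10132 (80.5%). The outermost replicate 1 peak of the window, at -73.3 kb, measured 1154 bp and another at -38.8 kb measured 631 bp, both without a counterpart. On the higher-coordinate side a peak of 1067 bp stood alone at 11.3 kb, and 3 peaks of 640 to 902 bp lay between 27.2 and 44.4 kb, all unshared.

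**Figure D3:**
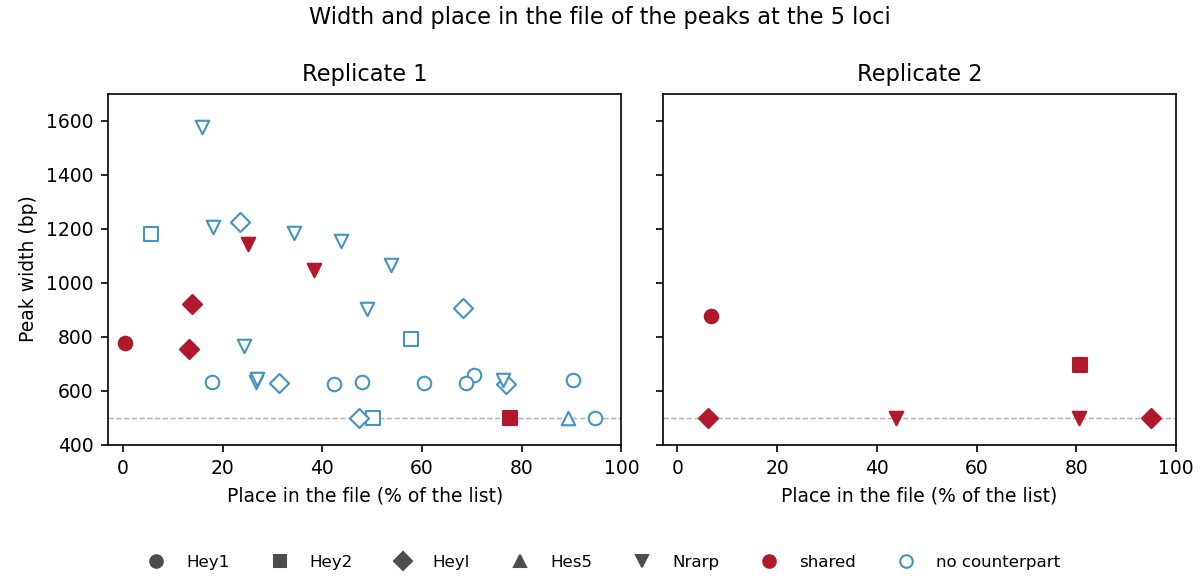
Width (y axis, bp) against place in the file (x axis, percent of the list, 0 being the first peak) of the peaks at the 5 loci, for replicate 1 (left) and replicate 2 (right), with 1 symbol per gene and filled red symbols for shared peaks. Open symbols at the upper left are wide and early replicate 1 peaks without a counterpart, among them Nrarp at 1577 bp and Hey2 at 1180 bp, and 4 of the 6 replicate 2 peaks lie on the dashed line at 500 bp.

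Across the loci the member peaks were spread through both files. Of the 33 replicate 1 peaks, 9 stood in the first 25% of the list and 6 in the last 25%. Of the 9 early ones 3 were shared, at Hey1 and Heyl, while 69.2% of all replicate 1 peaks in that part were. Of the 6 replicate 2 peaks, 2 stood in the first 25%, at Hey1 and Heyl, and 3 in the last 25%, at Hey2, Heyl and Nrarp. The distal Hey1 site and the Heyl site near the gene were thus the sites in the first 25% of both lists.

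At Heyl and Nrarp the replicate 2 peak had the minimum width of 500 bp in all 4 pairs, and the replicate 1 peak was 1.51 to 2.29 times as wide. A replicate 1 peak cannot be narrower than that minimum, so the direction in these pairs was nearly fixed. The share of all shared pairs with the wider peak in replicate 1 was not measured. At Hey1 and Hey2 the replicate 2 peak was wider, by 1.13 and 1.39 times. Minimum-width peaks made up 4 of 6 member peaks in replicate 2 (66.7%, against 47.9% of that list) and 5 of 33 in replicate 1 (15.2%, against 31.8%). Centres of the 6 pairs lay a median of 152 bp apart, and those of all shared peaks 81 bp. Of the 27 unshared replicate 1 peaks 7 lay within 10 kb of a replicate 2 peak, at Hey1, Heyl and Nrarp, and the distance ranged from 1.64 to 193 kb. How many of all unshared replicate 1 peaks lay that close was not measured, so this count only describes the members.

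Close to the gene positions, replicate 1 had a peak centred within 10 kb at 4 of the 5 genes, all but Hes5, and replicate 2 at 2, Heyl and Nrarp. Counted by any base of a peak within 10 kb, the genes were the same. The Nrarp replicate 2 peak lay 9.01 kb from a position uncertain by up to 5 kb, so its place within 10 kb is not firm. In the grid 17.6% of windows had any base of a replicate 1 peak within 10 kb of their middle and 8.86% of a replicate 2 peak. Windows of the grid seldom centre on genes, and occupancy around genes in general was not measured here. The number of replicate 1 peaks fell to 15 and of replicate 2 peaks to 3 when the distance was reduced to 25 kb, where Hey1, Hey2 and Hes5 had none in replicate 2.

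The limit of 100 kb left few peaks at its border. The outermost members lay 84.4 kb from Hey1, 87.6 kb from Hey2, 50.04 kb from Heyl, 18.8 kb from Hes5 and 73.3 kb from Nrarp. The nearest replicate 1 peaks outside lay 100.5 kb from Hey1, 102.7 kb from Nrarp, 110.3 kb from Hes5, 139 kb from Heyl and 140 kb from Hey2.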

How the data were processed

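Notch2 ChIP-seq peak lists of 2 replicates were analysed. The submitters' processing notes name Bowtie, SAMtools, HOMER and the mm9 build, with no version or role. How peaks were called, and whether the input was used for it, is not stated in those sources. The authors deposited 1 list for each of the 2 Notch2 samples, with positions in base pairs, taken here as counted from 0 at the start and printed counted from 1, with no score, count or signal. Repeated rows (242 of 28893 and 480 of 13065) were counted once, and places are ranks after that. Depth is therefore unknown, and Wilson and exact binomial intervals (95%) cover counting error only. A deeper or more enriched library yields more and weaker peaks.

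The genes, their mm9 positions and the peaks to be named (the shared peaks and the peak nearest each gene) were chosen with earlier results of these data known. Other peaks were named after their values were seen. The planned counts for other Notch pathway genes and sequence under peaks need an mm9 annotation and genome and were not analysed here. No test between groups exists with 1 list per replicate, and every window of the grid was counted in place of random windows. A peak belonged to each window it touched. Promoters were taken from RefSeq (GRCm38.p6).

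Overlaps and window counts were tested on simulated data and against bedtools 2.31.1. Tables were handled with pandas 2.3.3 and numpy 2.4.6 in Python 3.11.15, intervals with scipy 1.17.1 and plots with matplotlib 3.10.9. Alternatives concerned the distance, the overlap, the part of each list and the grid.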

Additional observations from a re-analysis of the deposited data

How the results depend on the processing

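Counts of 33 replicate 1 peaks, 6 replicate 2 peaks and 6 shared peaks did not change when peaks were assigned by their centre or repeated rows were counted. At 50 kb on each side they were 23, 4 and 4, and at 25 kb 15, 3 and 3, fewer by construction. In the first 50% of each list they were 20, 3 and 3, and in the wider 50% 20, 2 and 1, with Hey1 as the shared site. An overlap of 50% of both peaks left 3 shared peaks in either replicate, centres within 100 bp left 2, and lists of the same length left 5. Of 36 alternative shares of windows, 11 stayed inside the 95% Wilson interval of the share reported and 25 did not. The share for Nrarp in replicate 1 ranged from 1.14 to 1.68% and that for Hey1 from 3.10 to 5.12%. With 1 replicate left out, sharing has no value. No paired analysis was possible because the lists used here were all of the Notch2 group. Unknown depth limits every statement on peaks found in 1 replicate.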

Other observations

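The loci differ in how many genes they hold. In the GRCm38.p6 RefSeq table, used for neighbours only, 16 other protein-coding genes lie within 100 kb of Nrarp, 6 of Hes5, 5 of Heyl, 1 of Hey1 and 1 of Hey2. Nrarp lies between Noxa1, an activator of NADPH oxidase, and Tor4a. Heyl lies between Nt5c1a and Pabpc4, a poly(A)-binding protein, and Hes5 between Tnfrsf14, a receptor of the tumour necrosis factor family, and Pank4. Hey1 lies between Stmn2 and LOC115489673, and Hey2 between Ncoa7 and Hddc2. The 1 gene within 100 kb is LOC115489673 for Hey1 and Ncoa7 for Hey2. The distal shared sites at Hey1 and Hey2 were not assigned to any of these genes. Replicate 1 had 12, 1, 7, 9 and 4 peaks at these loci in the same order as the gene counts. Hes5, with 6 neighbours, had fewer peaks than Hey1, with 1. The part of gene number in these counts was not tested.

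Beyond the window, counts at Hes5 rose steeply, from 1 replicate 1 peak within 100 kb to 2 within 150 kb and 9 within 200 kb, and from 0 replicate 2 peaks within 150 kb to 2 within 200 kb. At Nrarp the replicate 1 counts went from 12 to 15 within 200 kb, at Hey1 from 9 to 11, at Heyl from 7 to 10 and at Hey2 from 4 to 6. Within 200 kb Hes5 was therefore no longer the locus with the fewest peaks. Hey2 had fewer in both replicates, with 6 against 9 in replicate 1 and 1 against 2 in replicate 2. The next replicate 2 peak outside the window lay 1153 kb from the Heyl position and 630 kb from the Nrarp position. In replicate 1 the next peaks outside lay 139 and 102.7 kb away. How common such gaps are in the shorter replicate 2 list was not measured.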
